A study of Mus musculus with 8 samples.

Results

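The respiratory chain subunit genes encode, in the nucleus, the protein subunits of complexes I to V of the inner mitochondrial membrane. They were found by symbol (Nduf, Sdh, Uqcr, Cox and Atp5 families) as the nearest gene of a region of acetylated histone H3 lysine 27 (H3K27ac) whose distance to the transcription start site was at most 100 kb. This gave 360 of 112137 regions and 77 genes, of which 34 belong by name to complex I, 4 to complex II, 8 to complex III, 15 to complex IV and 16 to complex V. H3K27ac marks active regulatory DNA and was measured here with CUT&Tag, in which an antibody directs a transposase to the marked chromatin. Mouse embryonic stem cells were studied in 4 groups of 2 libraries each. These were formative cells lacking MLL3 and MLL4 (DKO), formative wild-type (WT) cells, naive DKO cells and naive WT cells, with formative cells taken 63 hours after withdrawal of LIF2i. WT cells were of the R1 line, the labels name no line for DKO, and the replicate cultures were independent. The design asks how the mark differs without MLL3 and MLL4, the H3K4 methyltransferases encoded by Kmt2c and Kmt2d, and how it changes between the states.

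Complexes I to IV pass electrons from NADH and succinate to oxygen and pump protons (complex II does not pump), and complex V uses the proton gradient to make ATP. A few core subunits come from mitochondrial DNA, so the nuclear genes described here must be expressed together with them. Naive embryonic stem cells are known to use respiration as well as glycolysis, and cells leaving that state are known to rely more on glycolysis.

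The values are the authors' pooled values on a log2(value + 1) scale, 1 per group and region, with no SD or n. No DKO difference therefore has a replicate check, and a gene is called higher or lower by size alone, at a log2 difference of at least 1 (2-fold). Over all genes with a promoter region the median DKO against WT difference was itself above 0, at 0.79 in formative and 0.58 in naive cells, and the scaling of the columns between groups is not stated. A lower value cannot tell fewer cells with the mark from less of it per cell, and the depth behind the values is unknown. The 1 replicated test is the authors' DiffBind comparison of formative with naive WT cells, with Benjamini-Hochberg adjusted p-values over all regions. RNA of the targeted genes was lower in DKO cells in the authors' deposited table, at -0.91 (formative) and -1.15 (naive) log2 for Kmt2c and -0.84 and -0.72 for Kmt2d. The deleted parts are not given, so these values do not test the knockout itself. RNA of 9 of 10 naive marker genes was at least 2-fold lower, and that of 6 of 6 formative markers at least 2-fold higher, in formative than in naive cells of either genotype in the authors' deposited table. Of 9 fibroblast markers (feeder cells), 3 had RNA folds and 5 had regions; their median RNA log2 fold was 1.05 in formative and 0.81 in naive DKO against WT cells, and 2.77 in DKO and 2.53 in WT formative against naive cells, in the authors' deposited table. H3K27ac at the 5 fibroblast markers with regions had medians of -1.19 in formative and -1.52 in naive DKO against WT cells, and of 0.05 in DKO and 0.12 in WT formative against naive cells. Over the starts of 7 naive markers the medians were 1.72 in formative and -0.38 in naive DKO against WT cells, and -1.71 in DKO and -3.64 in WT formative against naive cells. Over those of 3 formative markers they were -1.41, -0.15, 0.01 and 1.44 in the same order. RNA levels of these markers were not analysed here, and their part in the results below was not tested.

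Of the 360 regions, 31 carried the promoter label in the file, at 30 genes, and 329 at 73 genes did not. The label missed many starts. Of the 77 genes, 55 had a region lying over the annotated start, and 26 of these 55 regions were labelled otherwise, as intron (19), exon (6) or transcription end (1). The start is the one behind the distance given in the file. Of the 55 regions, 50 also hold the start of the gene in RefSeq, and 5 do not, among them those of Ndufs7, Cox5a, Atp5d and Atp5g3. Over the 50 alone the median DKO against WT difference was 1.11 in formative and 0.69 in naive cells, with 48 and 46 above 0. Since the label missed these starts, values over the start are given beside those of the labelled promoters; this second grouping was chosen after the data were seen. A pair of labelled promoter regions, upstream of Cox6b1 and Cox7b, did not cover the start. Regions per gene ran from 1 to 28 with a median of 3, and 7 genes with over 12 regions held 127 of the 360.

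Promoter sequence was read from RefSeq (GRCm38.p6) for 64 of the 77 genes, from 250 bases before to 50 bases after the start. Both strands were searched for binding motifs of factors known to act at nuclear genes of mitochondria. The NRF-1 core GCGCANGCG was found in 18 of 64 promoters (28.1%), against 6.47% of 27025 promoters in the table and 14.8% of the 6418 whose gene had a region over its start. The YY1 core AANATGGCG was found in 12.5% of the 64, against 2.51% and 6.06% in those same sets. The ETS core CCGGAAGT was found in 7.81%, against 4.0% and 8.93%, and the SP1 core GGGCGGG in 34.4%, against 25.8% and 47.7%. CCAAT was found in 43.8%, against 37.9% and 39.7%, TATAAA in 12.5%, against 14.2% and 6.14%, and the oestrogen-related receptor core TCAAGGTCA in 3.12%, against 0.407% and 0.28%. The 64 include genes with no region over the start. Of the 47 with a value there, 27.7% held NRF-1, 12.8% YY1, 38.3% SP1, 6.38% ETS, 48.9% CCAAT, 12.8% TATAAA and 2.13% oestrogen-related receptor letters, to be read against the shares of the 6418. The differences of shares were not tested, and a match is a description and not a shown site. The stretches below are printed because they hold such matches at genes of complexes I, II and V. Each runs 5′ to 3′ on the gene's strand and ends before the start, with NRF-1, ETS and YY1 matches in capitals. Matches to the other motifs are not marked.
Sdha: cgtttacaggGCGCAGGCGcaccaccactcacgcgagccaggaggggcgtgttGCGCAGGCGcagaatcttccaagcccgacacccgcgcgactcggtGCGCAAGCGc
Ndufa8: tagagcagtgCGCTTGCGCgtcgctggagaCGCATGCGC
Atp5k: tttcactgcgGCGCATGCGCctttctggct
Atp5g2: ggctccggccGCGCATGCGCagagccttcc
Ndufa11: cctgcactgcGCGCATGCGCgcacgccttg
Sdhd: tcgctggggtGCGCACGCGcggtggcagc
Atp5h: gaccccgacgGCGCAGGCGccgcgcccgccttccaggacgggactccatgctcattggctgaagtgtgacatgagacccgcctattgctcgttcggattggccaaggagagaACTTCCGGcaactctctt
Ndufb11: tcaccaacacAAAATGGCGacgagaagag

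The first of these, Sdha, lies at chr13:74350241-74350348 on the minus strand and holds 3 NRF-1 matches. Ndufa8 (chr2:36049339-36049377, minus strand) holds a pair of NRF-1 matches. Single NRF-1 matches stand in Atp5k (chr5:108434430-108434459, minus), Atp5g2 (chr15:102671070-102671099, minus), Ndufa11 (chr17:56717692-56717721, plus) and Sdhd (chr9:50603910-50603938, minus). Atp5h (chr11:115419941-115420070, minus) holds an NRF-1 and an ETS match, and Ndufb11 (chrX:20617812-20617840, minus) a YY1 match. Among genes with values over the start, 13 with NRF-1 letters had a median DKO against WT log2 difference of 1.11 in formative and 0.61 in naive cells, and 34 without had 1.13 and 0.64. Genes with and without these letters thus had like medians in both states.

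H3K27ac over the starts of respiratory chain genes was higher in DKO than in WT cells. The log2 difference was above 0 at 53 of 55 genes in formative cells, with a median of 1.16 against 0.84 over all 8360 genes with such a region. In naive cells it was above 0 at 51 of 55, with a median of 0.70 against 0.54. Of all genes with such a region, 78.4% in formative and 74.4% in naive cells were also above 0. At least 2-fold higher were 32 genes (58.2%) in formative cells, where 42.5% of all genes were, and 15 (27.3%) in naive cells, where 28.4% of all genes were. At least 2-fold lower was 1 gene, Cox8b, in formative cells (8.52% of all genes) and none in naive cells (6.97% of all genes). The formative share was above that of all genes and the naive share close to it; the difference of shares was not tested, since the groups have 1 value each. By labelled promoters alone, 19 of 30 genes were higher and 1 lower in formative cells, against 40.6% and 11.3% of 5289 genes. In naive cells 6 were higher and 1 lower, against 30.6% and 7.77%. These counts move with the scaling of the columns: the genes higher were 4 in formative and 2 in naive cells when scaled to promoters, and 26 and 15 with median centring. The labelled medians were 1.12 in formative and 0.69 in naive cells.

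**Figure D1:**
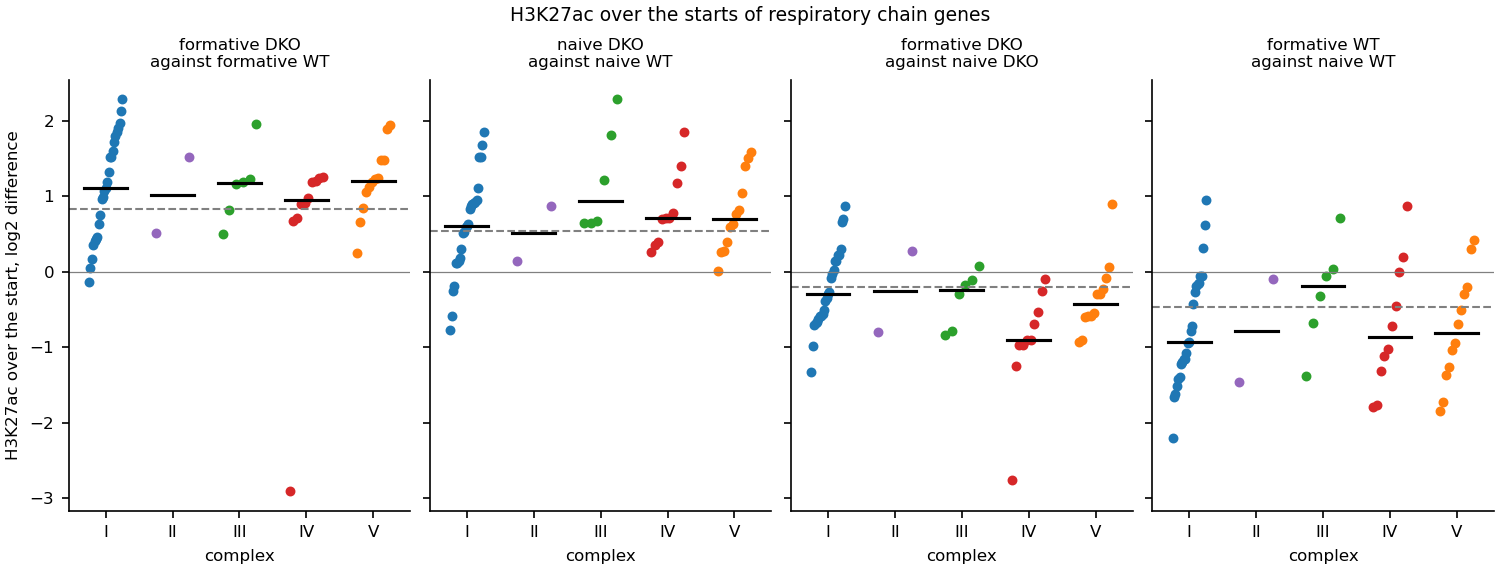
H3K27ac over the start, log2 difference of the authors' pooled values, for each of 55 genes (points) by complex, in 4 comparisons, with the median of each complex as a black bar and that of all genes with such a region as a dashed line. In formative DKO against WT cells the medians of the 5 complexes lie between 0.95 (complex IV) and 1.21 (complex V), with Cox8b of complex IV apart at -2.91.

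The medians of all 5 complexes were above 0 in both states. Those of all genes with a region over the start were 0.84 in formative and 0.54 in naive cells. In formative DKO against WT cells the median over the start was 1.11 for complex I (25 genes), 1.02 for II (2), 1.18 for III (6), 0.95 for IV (10) and 1.21 for V (12). In naive cells these medians were 0.61, 0.51, 0.94, 0.71 and 0.70 in the same order, with complex II just below all genes. The spread among genes of a complex was wider than the spread between the complex medians.

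Several core subunits of complex I, which bind NADH or carry iron-sulfur clusters, were among the genes at least 2-fold higher in formative DKO cells. Ndufs1, the largest of them, had pooled log2 values of 9.33 in formative DKO and 7.61 in formative WT cells, and of 9.67 in naive DKO and 8.83 in naive WT cells. It was thus higher in DKO in each state, by 1.72 log2 units in formative cells and by less, 0.84, in naive cells. Ndufv2, which also belongs to the NADH-binding module, was at 1.61 in formative and 0.51 in naive cells. Ndufv1, which holds the NADH site, ran the other way, with 0.97 in formative and 1.53 in naive cells.

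Accessory subunits of complex I spanned a wide range. Ndufc1 had the highest formative difference, with 9.94 in formative DKO against 7.65 in formative WT cells (2.29) and 9.97 in naive DKO against 8.43 in naive WT cells (1.53). Ndufa2 followed at 2.13 in formative and 0.90 in naive cells, and Ndufb11, whose promoter stretch with a YY1 match is printed above, at 1.91 and 0.91. Ndufb8 and Ndufa3 were higher in formative DKO but not in naive DKO cells: Ndufb8 had 8.96 in formative DKO against 7.11 in formative WT cells, but 8.74 in naive DKO against 9.32 in naive WT cells. Ndufb6 was the reverse case, at 0.64 in formative and 1.85 in naive cells, and so was Ndufa5, at 0.75 and 1.68. At the low end, Ndufv3 was at -0.14 in formative and 0.12 in naive cells, and Ndufb7 at 0.05 and -0.77. Ndufb10 (0.17 and 0.19), Ndufs6 (0.41 and 0.12) and Ndufa4 (0.36 and 0.53) also stayed well under 2-fold; Ndufa4 carries a complex I name but is known as a subunit of complex IV.

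Complex II, succinate dehydrogenase, has 4 nuclear subunits, all of which had regions. Sdha, the flavoprotein with 3 NRF-1 matches before its start, had 8.81 in formative DKO against 7.29 in formative WT cells and 9.61 in naive DKO against 8.74 in naive WT cells, a difference of 1.53 and 0.87. Sdhb, the iron-sulfur subunit, differed less over its start, by 0.52 and 0.15, with 7.51 in formative DKO, 6.99 in formative WT, 7.24 in naive DKO and 7.09 in naive WT cells. The membrane anchors Sdhc and Sdhd had no region of their own over the start. Sdhc had a single intronic region, at -1.56 in formative and 0.25 in naive cells. Sdhd had an intronic region 1.1 kb from the start with 8.70 in formative DKO against 6.32 in formative WT cells (2.38) and 9.93 in naive DKO against 9.44 in naive WT cells (0.49). The start of Sdhd lay in a region assigned to its head-to-head neighbour Timm8b, which was at 0.83 in formative and 1.69 in naive cells.

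In complex III, the core protein Uqcrc2 had the highest naive difference of all starts, with 10.12 in formative DKO against 8.16 in formative WT cells (1.96) and 10.41 in naive DKO against 8.12 in naive WT cells (2.29). Uqcrc1, the other core protein, was at 0.50 in formative and 1.22 in naive cells. The small subunit Uqcr11 was at 1.16 and 1.81, Uqcr10 at 1.23 and 0.65, Uqcrb at 1.19 and 0.65 and Uqcrq at 0.82 and 0.67. All 6 complex III starts were above 0 in both states. Uqcrfs1, the Rieske iron-sulfur protein, had no region over its start.

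Complex IV starts, as the file places them, were also above 0, except for Cox8b in formative cells. Cox5a and Cox5b, nuclear subunits that sit against the catalytic core, were at 1.20 and 0.98 in formative and at 0.40 and 0.78 in naive cells. The Cox5a value is that of an intronic region. The neighbouring Cox5a region that holds the RefSeq start went the other way, at -0.28 in formative and -0.99 in naive cells, with 4.66 in formative DKO, 4.94 in formative WT, 5.37 in naive DKO and 6.36 in naive WT cells. Cox7c had 9.63 in formative DKO against 8.37 in formative WT cells (1.26) and 10.53 in naive DKO against 10.16 in naive WT cells (0.36), whereas Cox6c was at 0.72 in formative and 1.41 in naive cells. Cox7a2l, a factor known for joining complexes III and IV, was at 0.90 and 0.70. The labelled promoter region upstream of Cox6b1, which does not cover the start, was lower in naive DKO (6.64) than in naive WT cells (8.63), a difference of -1.99, while formative DKO and WT cells had 6.37 and 6.14 there.

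Complex V held the highest share of 2-fold differences in formative cells, 9 of 12 starts. Epsilon (Atp5e) of the central stalk had 10.35 in formative DKO against 8.45 in formative WT cells (1.90) and 10.93 in naive DKO against 10.29 in naive WT cells (0.64), and delta (Atp5d) was at 1.19 and 0.59, in an exonic region inside the gene that does not hold its RefSeq start. Peripheral stalk genes Atp5j and Atp5h were at 1.95 and 1.12 in formative and at 0.82 and 0.39 in naive cells. The c-ring genes Atp5g1 and Atp5g3, which encode the same mature protein, were at 1.25 and 1.49 in formative and at 0.77 and 1.40 in naive cells. The catalytic beta subunit Atp5b was among the lowest, at 0.66 and 0.01, with 9.09 in naive DKO and 9.08 in naive WT cells. Atp5k, a small membrane subunit with an NRF-1 match, was at 0.25 in formative and 1.59 in naive cells, and Atp5mpl was at 1.48 and 1.51.

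**Figure D2:**
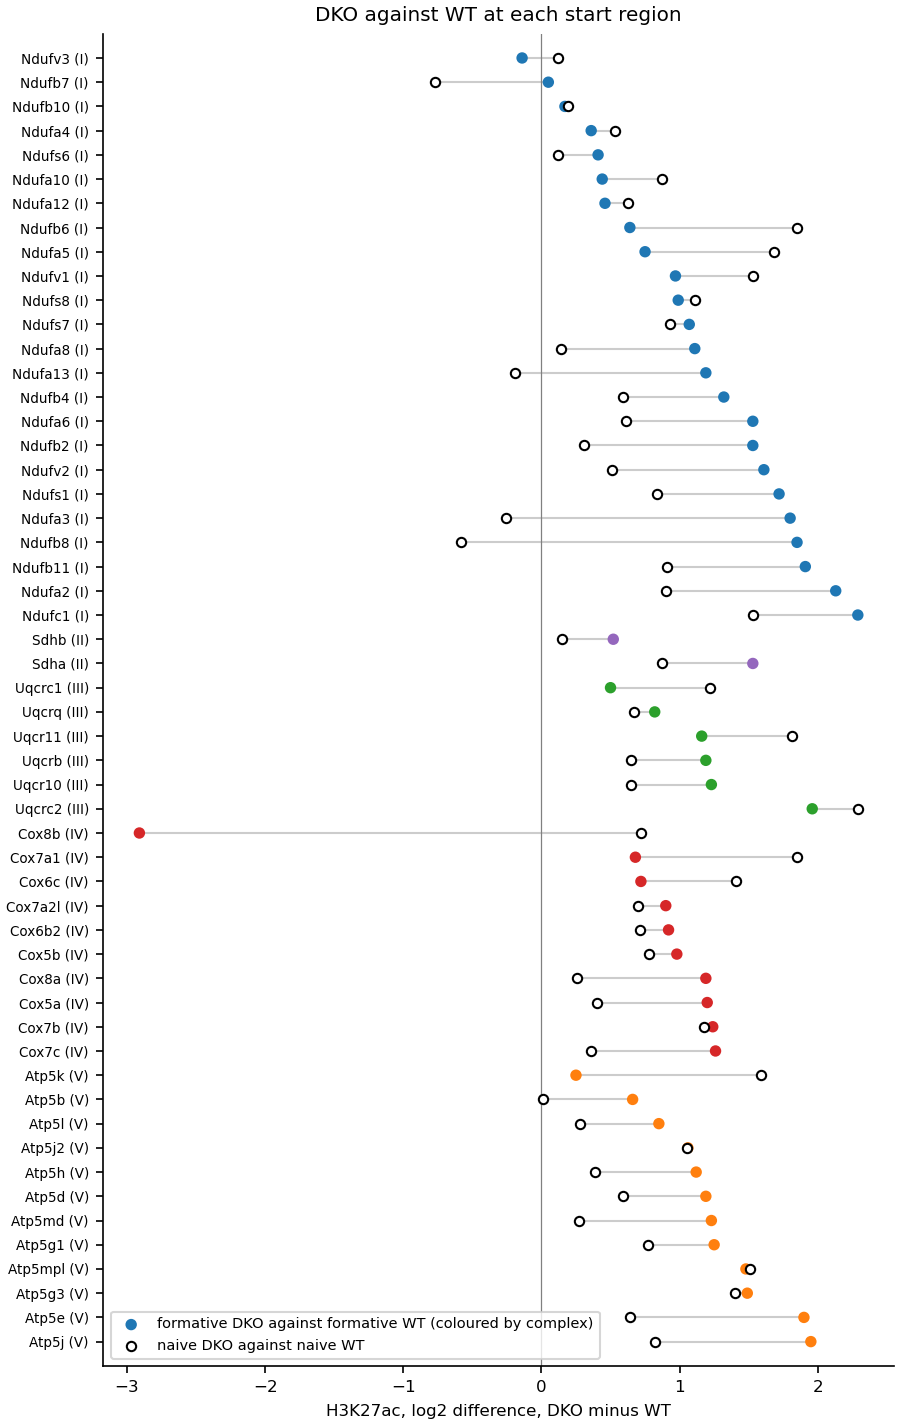
H3K27ac over the start of 54 of the 55 genes, DKO minus WT on the log2 scale, in formative cells (filled, coloured by complex) and naive cells (open), with complexes in blocks and genes ordered by the formative value. Cox8b lies at -2.91 in formative cells, and apart from it only Ndufv3 (-0.14) is below 0 there.

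Between states, H3K27ac fell over many of the starts in formative WT cells by the authors' test. At a DiffBind adjusted p under 0.05, 22 of 55 start regions (40.0%) fell and 1 rose in the authors' deposited table, where 31.1% of all start regions fell and 9.74% rose. Of labelled promoters 12 of 31 fell and 1 rose, against 25.9% and 10.6% of all. The 22 were 12 of complex I, 1 of II (Sdha), 1 of III (Uqcrb), 4 of IV (Cox5a, Cox6b2, Cox7c and Cox8a) and 4 of V (Atp5b, Atp5e, Atp5g1 and Atp5j). Their share was somewhat above that of all starts, and the difference of shares was not tested.

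By DiffBind in the authors' deposited table, the accessory subunit gene Ndufa6 fell by 1.73 on the log2 scale over its start (adjusted p = 4.8e-06) and Cox5a fell by 1.79 (adjusted p = 1.45e-07). That DiffBind column of the authors' deposited table also held Ndufv2, which fell by 1.63 (adjusted p = 7.11e-06), Atp5j, which fell by 1.71 (adjusted p = 8.15e-06), and Sdha, which fell by 1.40 (adjusted p = 0.00309). Of the starts in the authors' deposited table, Ndufb8 had the lowest DiffBind log2 fold, -2.25 (adjusted p = 0.00261). Uqcr11 was the single start region that rose in the authors' deposited table, with a DiffBind log2 fold of 0.83 close to the threshold (adjusted p = 0.0485). Other subunit genes did not pass the test: Ndufv1 (-0.06), Uqcrc1 (-0.05), Uqcrc2 (0.09) and Cox6c (0.02) had DiffBind log2 folds near 0 in the authors' deposited table.

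**Figure D3:**
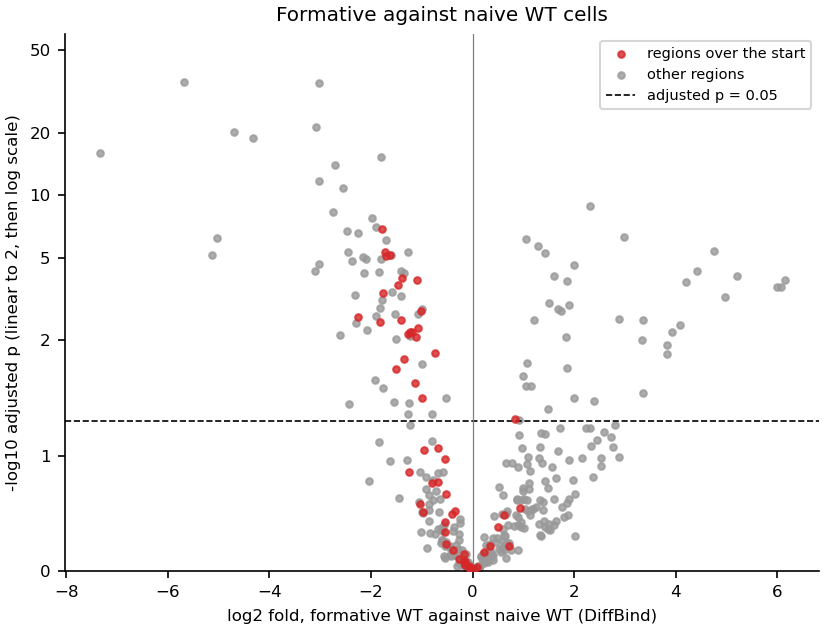
The authors' DiffBind log2 fold of formative against naive WT cells (x axis) and -log10 of its adjusted p (y axis, linear to 2 and logarithmic above) for 360 regions of respiratory chain genes. Start regions (red) lie mostly left of 0, with 22 fallen and 1 risen, while the other regions (grey) spread both ways.

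In DKO cells the median difference between states was smaller. Over the starts, pooled formative minus naive values gave a median of -0.39 for DKO and -0.72 for WT cells; over all genes these medians were -0.20 and -0.46. No start was at least 2-fold higher in formative DKO cells (7.05% of all genes) and 3 were lower (9.37% of all genes), namely Cox8b (-2.76), Ndufa4 (-1.33) and Cox7b (-1.25). By labelled promoters in DKO cells none was higher (8.91% of all) and 2 lower (9.32% of all). The state change in DKO minus that in WT was above 0 at 38 of 55 starts (61.4% of all genes), with a median of 0.47 against 0.29 over all genes. It rests on 1 pooled value per group and was not tested. It was highest at Ndufb8, at 0.22 in DKO and -2.21 in WT cells, and at Ndufa3, at 0.88 and -1.19, and lowest at Cox8b, at -2.76 and 0.87. These comparisons share groups with those of DKO and WT cells, so none adds independent support to another.

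The level over the starts can be compared between genes per length, as DiffBind concentration per kb on the log2 scale in WT cells. So scaled, the values of the authors' deposited table had a median of 6.35 in formative cells (all starts 6.36) and 6.90 in naive cells (all starts 6.76). The highest naive levels were those of Ndufa4 (8.23), Cox6b2 (8.19), Atp5j (8.10), Atp5e (8.07) and Cox7a2l (7.96), and the lowest was that of Cox8b (5.26), in the authors' deposited table. Neighbours in this order differ by little and have no spread to set them against. In formative cells Cox7a2l was highest (7.27) and Ndufb8 lowest (4.61), in the authors' deposited table.

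Outside labelled promoters the difference between DKO and WT cells was smaller. Over the 73 genes with regions outside labelled promoters, the median DKO against WT difference was -0.06 in formative cells (all genes -0.73) and 0.21 in naive cells (all genes -0.09). At least 2-fold higher in formative DKO were 5 genes (5.52% of all) and lower 8 (40.5% of all), and in naive DKO 5 were higher (12.9% of all) and 6 lower (22.0% of all). Over the alternatives tried these medians ran from -0.69 to 0.72 in formative and from -0.36 to 0.50 in naive cells, so their signs depend on the scaling. The respiratory chain median lay above that of all genes under quantile normalization, loess offsets, the larger pseudocount and the filter on level. Median centring, scaling to promoters and scaling to the sum shift all genes alike and cannot change that gap. These regions include the 26 start regions without a promoter label. The lowest formative values were those of Uqcrfs1 (-4.56), Ndufc2 (-2.06) and Ndufb5 (-1.83), and the highest those of Sdhd (2.38), Cox8a (1.27) and Ndufa7 (1.21). In naive cells the lowest were Ndufb5 (-2.21), Cox7a2 (-1.53) and Cox8b (-1.47), and the highest Atp5k (1.59), Ndufc1 (1.53) and Ndufs3 (1.39). Between states in DKO cells 1 gene was higher (10.4% of all) and 9 lower (11.7% of all).

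Split by distance, the difference was smaller or negative farther from the start. In formative DKO against WT cells the median over respiratory chain regions was 1.16 over the start (55 regions), 0.23 within 5 kb (66), -0.28 from 5 to 20 kb (127) and -0.61 from 20 to 100 kb (109). Over all regions these medians were 0.83, -0.28, -0.57 and -0.84. In naive cells they were 0.70, 0.23, -0.13 and 0.00, against 0.54, 0.08, -0.10 and -0.19 over all regions. On the deposited scale 39.4% of the respiratory chain regions from 20 to 100 kb were at least 2-fold lower in formative DKO cells, against 45.0% of all. The direction at a distance depends on that scale: from 20 to 100 kb the formative median was 0.16 with median centring and -1.24 scaled to promoters, and from 5 to 20 kb 0.49 and -0.91. The formative medians kept their order by distance under quantile normalization and loess offsets. Median centring, scaling to promoters and scaling to the sum shift all regions alike and cannot change that order.

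**Figure D4:**
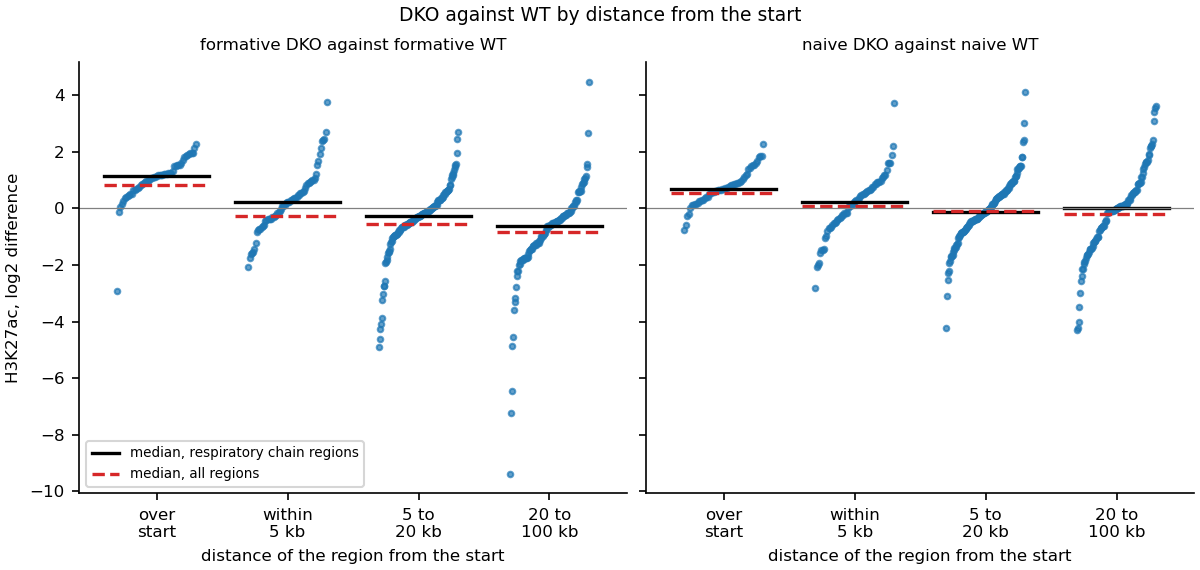
Log2 difference of DKO against WT cells at each respiratory chain region above 0 in all groups (points), by distance from the start, in formative and naive cells, with medians of these regions (black) and of all regions (red, dashed). In formative cells the medians step from 1.16 over the start to -0.61 beyond 20 kb.

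Many of the distal regions lie in other genes. Of 305 regions not over the start, 110 had their centre in the body of the RefSeq gene they are named for, 113 in the body of another protein-coding gene and 82 in neither. Of the 26 regions named for Ndufb9, 24 lay in Mtss1. Of the 28 named for Cox7a2l, 16 lay in Eml4, and 10 of the 14 named for Atp5o lay in Itsn1. Of the 17 named for Ndufb2, 12 lay in Braf. Of the 14 named for Atp5j, 8 lay in Gabpa, among them the one over its start, and 4 in Jam2. Which gene such a region acts on was not tested. The median formative DKO against WT difference was -0.21 for regions in the gene's own body, -0.37 in another gene and -0.48 in neither.

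Of 329 regions without a promoter label in the authors' deposited table, 39 rose and 64 fell in formative against naive WT cells at a DiffBind adjusted p under 0.05, against 21.4% and 15.2% of all such regions. Of the 39 risen regions not over a start, 25 lay in another gene's body and 5 in the gene's own. The smallest p belonged to an intergenic region 26.8 kb from Uqcrb (chr13:66877461-66879562), which in the authors' deposited table fell by 5.68 (DiffBind adjusted p = 7.57e-36). Its pooled values were 4.18 in formative DKO, 3.12 in formative WT, 7.60 in naive DKO and 9.05 in naive WT cells. The mark there was thus lower in formative than in naive cells of both genotypes. In the same DiffBind column of the authors' deposited table an intergenic region 21.6 kb from Ndufb5 (chr3:32757345-32759910) fell by 3.03 (adjusted p = 1.31e-35), with 4.81 in formative DKO, 6.65 in formative WT, 6.60 in naive DKO and 9.58 in naive WT cells. That region was lower in DKO in both states, and so was the gene's median over 7 regions, at -1.83 in formative and -2.21 in naive cells.

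DiffBind in the authors' deposited table also had a region 2.9 kb upstream of Ndufv2, which fell by 4.69 (adjusted p = 5.81e-21), and one 7.9 kb upstream of Cox7a2l, which fell by 3.08 (adjusted p = 3.78e-22). At the Ndufv2 region formative DKO cells had 5.27 and formative WT cells 3.13, against 7.63 in naive DKO and 8.15 in naive WT cells. A trio of regions named for Atp5j but lying in Jam2 had DiffBind log2 folds from -7.34 to -3.02 in the authors' deposited table, the largest adjusted p = 2.19e-12. The farthest of them, 27.2 kb from the start, had 6.31 in formative DKO against 1.84 in formative WT cells, and 8.51 in naive DKO against 8.58 in naive WT cells. Naive DKO and WT values lay close together there, and the formative value stayed higher in DKO. Others among the 12 smallest DiffBind p-values of the authors' deposited table were named for Ndufa13, in the body of Gatad2a (-1.81, adjusted p = 5.9e-16), and Ndufb4, in its intron (-2.71, adjusted p = 1.22e-14). A second Uqcrb region (-2.56, adjusted p = 1.34e-11) and one upstream of Cox8a (-2.75, adjusted p = 5.5e-09) also fell by DiffBind there, the authors' deposited table being the source. The single rise among the 12 was at a region named for Atp5o and lying in Itsn1, with a DiffBind log2 fold of 2.31 and adjusted p = 1.43e-09, per that column of the authors' deposited table.

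Some distal regions differed sharply between formative DKO and WT cells. A narrow intergenic region 33.7 kb from Cox4i1 had 1.29 in formative DKO against 10.68 in formative WT cells, and 5.97 in naive DKO against 4.25 in naive WT cells. In formative against naive WT cells of the authors' deposited table it rose by 4.97 (DiffBind adjusted p = 0.000596). The only region of Uqcrfs1, 29.2 kb away, had 4.64 in formative DKO against 9.20 in formative WT cells and 6.72 in naive DKO against 5.85 in naive WT cells. By DiffBind the authors' deposited table gave it a log2 fold of 3.34 (adjusted p = 0.00989). Both regions thus rose in formative WT cells and were lower in formative DKO than in formative WT cells. In the other direction, an intronic region 1.2 kb inside Cox7c had 8.67 in formative DKO against 4.92 in formative WT cells, and 8.33 in naive DKO against 9.79 in naive WT cells. The Cox4i1 and Cox7c regions were named after their values were seen.

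A trio of regions was listed at 0 in 1 group and entered no median. An intronic region named for Cox7a2l, 78.6 kb from its start and in Eml4, was at 0 in naive DKO cells. Regions of Atp5o (23.0 kb away, in Itsn1) and of Ndufb9 (2.5 kb away, in its exon) were at 0 in naive WT cells, and were called risen in formative WT cells by DiffBind in the authors' deposited table (adjusted p = 0.000242 and 0.00012). No fold is given against a group at 0.

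Among tissue-restricted isoforms of complex IV with a region over the start, Cox8b was lower in formative DKO cells and Cox7a1 and Cox6b2 were not. Over its promoter Cox8b, the form of heart and skeletal muscle, had 5.74 in formative DKO against 8.66 in formative WT cells. It had 8.51 in naive DKO against 7.78 in naive WT cells, its formative DKO value being the low one of the 4. In the authors' deposited table this region had the lowest DiffBind concentration of the start regions (5.23), and the difference has no replicate check. The other Cox8b region was at 0.13 in formative and -1.47 in naive DKO against WT cells. Cox8a, the broad form, had 8.49 and 7.30 in formative DKO and WT and 8.58 and 8.32 in naive DKO and WT cells. Cox7a1, also a form of heart and muscle, was at 0.68 in formative and 1.85 in naive cells, and the testis form Cox6b2 at 0.92 and 0.71. The Cox4i2 regions lay in Bcl2l1, whose body holds the centres of all 5, and 1 of them had a DiffBind log2 fold of -2.48 (adjusted p = 1.92e-07) per the authors' deposited table. Cox7b2, a testis form, had regions 8.8 and 21.9 kb away with a median of -1.40 in formative and -0.47 in naive cells. The broad forms Cox4i1, Cox6b1 and Cox7a2 had no region of their own over the start, and Cox6a1, Cox6a2 and Cox8c were not among the genes found.

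Some starts are hidden by the naming of regions. Of 84 protein-coding genes matching the symbols in RefSeq, 67 (79.8%) had their start inside a region, against 36.3% of 21690 other protein-coding genes. In 16 of the 67 the region was named for another gene, and in 11 of these that gene was a head-to-head neighbour, with a start within 1000 bases on the other strand. Such a neighbour stood beside 29.8% of the 84 genes and 6.79% of the others. Examples are Ndufs3 with Kbtbd4, Ndufb9 with Tatdn1, Ndufa11 with Vmac, Atp5c1 with Kin and Ndufb5 with Mrpl47, which itself encodes a mitochondrial ribosomal protein. A region over a shared start cannot be divided between the 2 genes. This also holds for some start regions named for the subunit gene itself. Examples are Ndufs1 with Eef1b2 (9 bases away), Ndufs6 with Mrpl36 (21), Ndufa2 with Ik (69) and Sdha with Ccdc127 (77). The start regions named for Atp5j, Ndufb11, Ndufs6 and Ndufv3 had their centre in the body of Gabpa, Rbm10, Mrpl36 and Wdr4.

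Over these 16 starts, 1 of which belongs to a gene also among the 55, the mark was likewise higher in DKO cells. The median DKO against WT difference was 1.30 in formative and 0.55 in naive cells, against 0.84 and 0.54 over all genes with a start region. Above 0 were 16 and 15 of 16, against 78.4% and 74.4% of all genes. At least 2-fold higher were 10 and 3, against 42.5% and 28.4% of all genes. The naive median was thus close to that of all genes. Atp5g2, the last c-ring gene, in a region named for Mir688, had 8.38 in formative DKO against 5.69 in formative WT cells (2.70) and 8.60 in naive DKO against 7.54 in naive WT cells (1.06). By DiffBind in the authors' deposited table it fell by 1.96 in formative WT cells (adjusted p = 1.89e-13). By the same test 8 of the 16 starts fell and none rose, against 31.1% and 9.74% of all start regions. Ndufb9 had 9.33 in formative DKO against 7.25 in formative WT cells, and 9.43 in naive DKO against 8.58 in naive WT cells.

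H3K4me1, the mark that MLL3 and MLL4 are known to place at enhancers, was also higher over these starts in DKO cells. The log2 fold of this mark in the authors' deposited table had a median of 0.79 in formative cells (all genes 0.67). In naive cells the median in the authors' deposited table was 0.70 (all genes 0.67). Above 0 were 55 of 55 starts in formative and 53 of 55 in naive cells, in the authors' deposited table. The share of all genes above 0 was not counted, so these counts do not set the starts apart. Regions outside labelled promoters had medians of 0.51 in formative and -0.03 in naive cells, against 0.01 and -0.24 over all genes, in the authors' deposited table. These folds come from libraries outside the series and have no n here.

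RNA folds, likewise from other libraries and without n here, were present for 66 of the 77 genes. By the authors' deposited table the median log2 fold of DKO against WT was 0.02 in formative and 0.03 in naive cells. At least 2-fold higher in formative DKO cells were 5 genes (5.87% of all 9781) and lower none (5.05% of all), and in naive DKO cells 2 were higher (8.54%) and 2 lower (11.2%), in the authors' deposited table. The 5 were Sdhd (1.92), Ndufs5 (1.77), Cox5a (1.5), Cox7c (1.30) and Atp5md (1.14), and the naive genes were Ndufs5 (2.04) and Ndufa13 (1.42) higher and Cox7a1 (-1.57) and Ndufv3 (-1.12) lower, in the authors' deposited table. Ndufs5 was the gene higher in both states. RNA of most subunits thus differed little while H3K27ac over the start was higher. Processed copies of several of these genes are known, and as the counting of their reads is not stated, single RNA folds are uncertain.

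Between states RNA of the subunits was lower in formative cells in small steps in DKO and WT cells. Of 66 genes in the authors' deposited table, 47 were below 0 in DKO cells (38.1% of all genes) and 51 in WT cells (41.9%). The medians were -0.25 in DKO and -0.23 in WT cells, whereas those over all genes were 0.18 and 0.13. For genotypes labelled CKO and dCD in the authors' deposited table, the medians lay near 0. For CKO 26 of the 66 genes were below 0 (44.6% of all genes), with a median of 0.07 (all genes 0.10). For dCD 34 were below 0 (49.1% of all genes), with a median of -0.06 (all genes 0.01). At least 2-fold lower were Ndufb4 alone (-1.02) in DKO cells (5.15% of all genes), and Cox7a1 (-1.31), Cox8a (-1.12), Cox6b1 (-1.10) and Ndufb5 (-1.03) in WT cells (9.65% of all genes), in the authors' deposited table. At least 2-fold higher were 4 genes in DKO cells (18.0% of all), Cox7b2 (1.95), Sdhd (1.21), Ndufb6 (1.18) and Atp5md (1.08), and none in WT cells (17.1% of all), in the authors' deposited table. Over the start of Cox8a H3K27ac also fell in WT cells, as given above.

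Over 46 genes with both values, the RNA fold and the H3K27ac difference over the start had at most a weak relation, of opposite sign in formative and naive cells. For genes at least 2-fold higher in H3K27ac in formative DKO cells the median RNA log2 fold was 0.11, and for the rest -0.1. In naive cells these medians were -0.1 and 0.09, all in the authors' deposited table. Pearson's r was 0.187 (Spearman's rho 0.314) for DKO against WT in formative and -0.233 (rho -0.134) in naive cells, across genes that share the same libraries, as a description of the authors' deposited table. Of 27 genes at least 2-fold higher in H3K27ac in formative DKO cells, 3 (Cox5a, Cox7c and Atp5md) were also at least 2-fold higher in RNA, in the authors' deposited table. Of all 9781 genes there, whatever their H3K27ac, 5.87% were at least 2-fold higher in RNA. The share among all genes higher in H3K27ac was not counted, so this overlap has no like value to be set against. Cox5a counts here by its intronic region, while the region holding its RefSeq start was at -0.28 in formative cells.

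**Figure D5:**
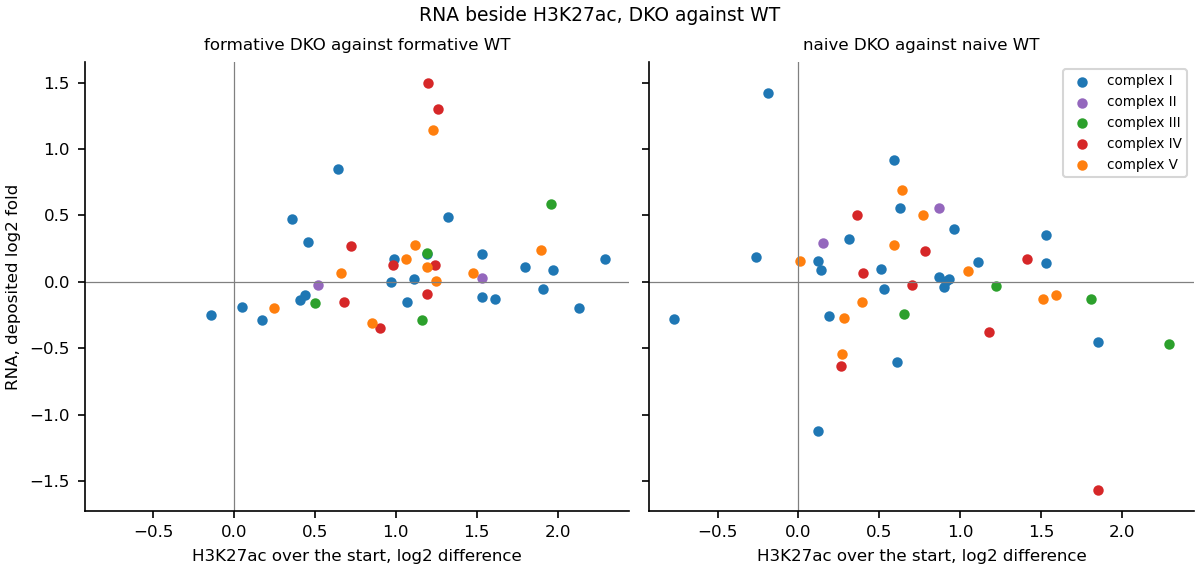
RNA log2 fold of DKO against WT from the authors' deposited table (y axis) beside the log2 difference of H3K27ac over the start (x axis) for 46 genes, coloured by complex, in formative and naive cells. Most genes lie right of 0 but near 0 in RNA, with Cox5a, Cox7c and Atp5md highest in RNA in formative cells. Cox5a is drawn by its intronic region, which does not hold the RefSeq start.

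Related mitochondrial genes showed a like pattern over their starts. In formative DKO against WT cells the median was 1.13 for 23 assembly factors of the chain, 1.03 for 12 regulators of mitochondrial transcription and biogenesis, 1.26 for 13 citric acid cycle genes and 1.10 for 49 mitochondrial ribosomal proteins. In naive cells these medians were 0.70, 0.50, 0.84 and 0.43. Over all genes with a region over the start the medians were 0.84 in formative and 0.54 in naive cells. At least 2-fold higher in formative DKO cells were 12 of 23, 7 of 12, 8 of 13 and 28 of 49, where 42.5% of all genes were. None was at least 2-fold lower, where 8.52% of all genes were. By DiffBind in the authors' deposited table, 9 of 23, 8 of 12, 6 of 14 and 18 of 51 start regions of these lists fell in formative WT cells at an adjusted p under 0.05, and 0, 1, 1 and 1 rose. Of all start regions 31.1% fell and 9.74% rose. The differences of shares were not tested. The respiratory chain median of 1.16 lies among those of the other lists, and no value here sets the subunits apart from them.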

How the data were processed

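H3K27ac was measured by CUT&Tag in 8 libraries, 2 per group. The submitters' processing notes name build mm10 and, with no role or version, deepTools, DiffBind, SEACR, Bowtie2 and Trim Galore; how replicates were pooled is not stated. What the authors deposited is 1 table with 112137 regions. Its 4 H3K27ac columns, log2(value + 1) per the file headers, hold 1 pooled value per group. For each region, DiffBind columns deposited by the authors hold a log2 fold, concentration, p-value and adjusted p-value, comparing WT cells in the formative with the naive state. Deposited log2 folds for H3K4me1 and RNA come from libraries outside the series, and 12 columns of their levels were not used. Width, annotation and distance to the start were used as the authors deposited them. Because the pooled values fall with region width (exponent -2.02), pooled values are compared only within a region, and levels between genes only by concentration per kb. Medians cover the 105643 regions above 0 in all groups (357 of the 360) and not the 6494 others.

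A gene's value was the median over its regions of a kind. Members, gene lists and the rule for named genes (the 2 highest and 2 lowest per complex, kind and comparison, complex II, tissue-restricted isoforms, the 12 smallest adjusted p and regions at 0) were chosen with earlier results of these data known. Values over starts, gene bodies and starts in neighbours' regions were added after seeing the data, and genes outside the rule were named after their values were seen. The planned tests per library could not be run on pooled columns. Called counts use 2-fold, with no test. The counting of calls was tested on simulated data. Software was Python 3.11.15, pandas 2.3.3, numpy 2.4.6, statsmodels 0.14.6 and matplotlib 3.10.9. Values of 1 gene are not reported here, though it is counted in the summaries.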

Additional observations from a re-analysis of the deposited data

Results flagged for a closer look

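At the only region of Uqcrfs1, the Rieske iron-sulfur protein of complex III, the pooled log2 difference between formative and naive cells was -2.08 in DKO and 3.35 in WT cells, in opposite directions. The difference between the genotypes was not tested, since each group has 1 pooled value.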

How the results depend on the processing

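No paired analysis was possible because the deposited columns pool the 2 replicates of each group; leaving out a replicate was not run for the same reason. For 28 results and 200 alternatives, 156 values stayed within 1.5-fold of those reported and 44 moved further. The sign was checked only for medians of at least 2-fold, those of formative DKO against WT over labelled promoters and starts, and neither changed. Some smaller medians changed sign. Over other regions they ran from -0.36 to 0.50 in naive DKO against WT and from -0.45 to 0.29 in formative against naive WT cells. Median log2 differences of DKO against WT over labelled promoters ran from 0.48 to 1.88 in formative and from 0.11 to 0.98 in naive cells; scaling to promoters gave 0.48, median centring 1.88 and quantile normalization 1.81 in formative cells. Over starts the formative median was 0.53 scaled to promoters and 1.93 with median centring. Over other regions it was 0.70 with median centring, 0.72 with quantile normalization and -0.69 scaled to promoters, so its sign depends on the scaling. The cause was not tested. Median centring, scaling to promoters and scaling to the sum shift a whole column alike. They cannot change the median of the respiratory chain genes minus that of all genes. Under quantile normalization, loess offsets, the larger pseudocount and the filter on level this difference kept its sign in every kind and comparison. It was computed for no other alternative.

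Counts of genes at least 2-fold apart depended more on the scaling. By labelled promoters, higher genes in formative DKO against WT cells were 4 scaled to promoters, and in naive cells 15 with median centring, 2 scaled to promoters, 13 scaled to the sum and 18 at 1.5-fold; lower ones in naive cells were 2 scaled to promoters. In formative against naive DKO cells 1 was higher at 1.5-fold, and 12 were lower at 1.5-fold and 1 with loess offsets. By other regions, higher genes in formative DKO against WT cells were 27 with median centring, 1 scaled to promoters, 17 scaled to the sum, 23 with quantile normalization, 8 with loess offsets and 12 at 1.5-fold. Lower ones were 3, 23, 5 and 3 under the first 4 of these and 18 at 1.5-fold. In naive cells 13, 1, 10 and 19 were higher with median centring, scaled to promoters, scaled to the sum and at 1.5-fold, and 13 were lower scaled to promoters. In formative against naive DKO cells 2 were higher scaled to promoters, 3 scaled to the sum, 3 with loess offsets and 11 at 1.5-fold, and 4 were lower with quantile normalization and 22 at 1.5-fold. Of labelled promoters, 0 rose in WT cells at a DiffBind adjusted p under 0.01 and 0 at 2-fold as well; of other regions 11 rose and 35 fell within 10 kb and 20 rose under the filter on level, per the authors' deposited table.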
